A study of Saccharomyces cerevisiae BY4741 with 12 samples.

Results

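The nuclear genes of oxidative phosphorylation were examined in strand-specific RNA-seq data of yeast Set2 mutants. They were chosen by systematic name as the subunits of complexes II to V, the cytochromes c and the mitochondrial NADH dehydrogenases, and all 37 were found among the 6632 annotated rows of the expression sheet. Polyadenylated RNA had been sequenced from 4 strains of BY4741 background, a laboratory strain of Saccharomyces cerevisiae, with 3 libraries per strain and 12 in all. The set2Δ strain lacks SET2, the only H3K36 methyltransferase gene of this yeast, and carried the empty pRS415 vector with a leucine marker. The set2-Y149F and set2-Y236F strains were set2Δ cells with the mutant SET2 gene on pRS415. By the study's account the set2-Y149F strain lacks dimethylation of H3K36, has less monomethylation and keeps trimethylation. The set2-Y236F strain lacks trimethylation and keeps the lower states. The WT is the wild-type strain, for which the methods name no plasmid, and no strain with wild-type SET2 on pRS415 is named, so a plasmid effect and a mutation effect cannot be told apart against the WT. No treatment was given, and cultures in YPD or SD medium, kept at 30 °C, were collected at an OD600 of 0.8, with no statement of which strain grew in which medium.

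The values are FPKM, fragments scaled to the length of the gene and the size of the library, given by the authors as 1 mean per strain. The number of libraries in a mean is not stated, and of the means with 16 digits 81.5% to 82.5% in each strain end in 5, as averages of 2 values do and averages of 3 seldom would, so a mean may not hold all 3 libraries of its strain. The means carry no SD, the depth of each library is unknown, and no difference could be tested against the spread between replicates. A gene is called higher or lower here when 2 strain means are 2-fold apart or more, taken as a difference of 1 in log2(FPKM + 1) and counts of called genes are read beside the percentage of all annotated rows called by the same rule. As a check of the labels, SET2 RNA was at 0.190 FPKM in set2Δ, against 29.1 FPKM in the WT, and the plasmid-borne genes gave 253 FPKM (set2-Y149F) and 271 FPKM (set2-Y236F). LEU2, the marker gene of the vector, was at 6023, 1775 and 1889.9 FPKM in the same mutants and at 3209 FPKM in the WT, although BY4741 is known to lack LEU2 and no plasmid is named for the WT.

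In the inner mitochondrial membrane of yeast, NADH dehydrogenases and succinate dehydrogenase (complex II) pass electrons to ubiquinone, the cytochrome bc1 complex (complex III) passes them to cytochrome c, and cytochrome c oxidase (complex IV) passes them to oxygen. ATP synthase (complex V) uses the proton gradient that results. S. cerevisiae has no complex I and uses single-subunit NADH dehydrogenases in its place. Most subunits are encoded in the nucleus, their genes are repressed on glucose and activated by the Hap complex, and a few subunits exist as a pair of isoforms, of which one is used in air and the other in low oxygen or under stress.

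The 37 are made up of 2 cytochrome c genes, 3 NADH dehydrogenase genes, 4 genes of complex II, 8 of complex III, 9 of complex IV and 11 of complex V, and lie on 14 chromosomes. In the RefSeq annotation of R64, the assembly that sacCer3 stands for, 35 have 1 coding exon and COX5B and QCR9 have 2, and 0 of the 37 overlap another annotated gene on either strand. Coding lengths ran from 180 bp (COX9) to 1923 bp (SDH1), with a median of 468 bp.

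The upstream sequences of the isoform pairs are shown because they hold CYC7 and NDE2, the genes with the widest gaps between strains. CYC7 and CYC1 encode the isoforms of cytochrome c, COX5B and COX5A those of subunit 5 of cytochrome c oxidase, and NDE2 and NDE1 the NADH dehydrogenases that face the intermembrane space. In coordinates of the coding region, CYC7 (YEL039C) lies at chrV:79636-79977 on the minus strand, CYC1 (YJR048W) at chrX:526335-526664 on the plus strand, COX5B (YIL111W) at chrIX:155222-155765 on the plus strand, COX5A (YNL052W) at chrXIV:531725-532186 on the plus strand, NDE2 (YDL085W) at chrIV:303211-304848 on the plus strand and NDE1 (YMR145C) at chrXIII:554793-556475 on the minus strand. Each line gives the 215 bases from 345 to 131 before the start codon in the sacCer3 build, read 5′ to 3′ on the strand of the gene, with each match to CCCCT on either strand in capitals. CCCCT is the core of the stress response element bound by Msn2 and Msn4, and this motif was chosen after the values had been seen. The 215 bases were set to hold every CCCCT match within 500 bases before these genes. The stretch before COX5A overlaps the neighbouring gene MSG5.
CYC7, chrV:80108-80322, minus strand: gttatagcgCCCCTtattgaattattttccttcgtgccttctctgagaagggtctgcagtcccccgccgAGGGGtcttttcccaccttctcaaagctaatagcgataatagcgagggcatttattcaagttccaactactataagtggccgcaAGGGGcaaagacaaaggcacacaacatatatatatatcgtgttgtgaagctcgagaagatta
CYC1, chrX:525990-526204, plus strand: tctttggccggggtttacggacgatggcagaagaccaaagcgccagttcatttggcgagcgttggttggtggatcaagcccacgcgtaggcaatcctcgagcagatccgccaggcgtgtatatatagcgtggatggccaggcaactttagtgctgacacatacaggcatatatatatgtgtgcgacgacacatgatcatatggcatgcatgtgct
COX5B, chrIX:154877-155091, plus strand: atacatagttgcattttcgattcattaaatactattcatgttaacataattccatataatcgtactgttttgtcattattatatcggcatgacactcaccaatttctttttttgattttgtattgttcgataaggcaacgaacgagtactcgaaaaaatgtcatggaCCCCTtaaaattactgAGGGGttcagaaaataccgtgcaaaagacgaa
COX5A, chrXIV:531380-531594, plus strand: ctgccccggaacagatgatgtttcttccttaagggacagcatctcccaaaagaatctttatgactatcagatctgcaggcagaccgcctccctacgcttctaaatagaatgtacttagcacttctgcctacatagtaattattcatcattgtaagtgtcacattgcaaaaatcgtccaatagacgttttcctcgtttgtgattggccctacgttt
NDE2, chrIV:302866-303080, plus strand: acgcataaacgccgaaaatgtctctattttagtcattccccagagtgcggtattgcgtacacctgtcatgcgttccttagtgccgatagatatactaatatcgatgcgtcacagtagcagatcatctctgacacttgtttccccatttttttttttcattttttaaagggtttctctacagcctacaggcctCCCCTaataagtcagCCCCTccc
NDE1, chrXIII:556606-556820, minus strand: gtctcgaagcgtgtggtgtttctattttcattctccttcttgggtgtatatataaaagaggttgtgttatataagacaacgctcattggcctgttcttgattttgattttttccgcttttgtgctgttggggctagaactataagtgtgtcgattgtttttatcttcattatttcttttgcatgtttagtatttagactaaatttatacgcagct

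CCCCT had 3 matches in the 500 bases before the start codon of CYC7, 2 before COX5B and 2 before NDE2, and 0 before CYC1, COX5A and NDE1. CCCCT was found before 18 of the 37 genes (48.6%), against 34.4% of the 5875 nuclear protein-coding genes with a window of that length. Of the 37 genes, 5 had 2 or more matches (13.5%), against 8.27% of the 5875. Like the motif, this cutoff of 2 was chosen after the values had been seen. The others of the 5 were COR1 and ATP2, which encode core subunits of complex III and of ATP synthase. COR1 differed from the WT by -0.07 (set2Δ), -0.02 (set2-Y149F) and -0.25 (set2-Y236F) on log2(FPKM + 1). ATP2 differed by 0.10, -0.11 and -0.22 in the same mutants. Genes with 2 or more matches thus lay on both sides of the WT. A match is a description of these letters and not a binding site.

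The site of the Hap complex is shown because its CCAAT core was, of the motifs searched, the one found before the most genes. The longer form printed below was found before fewer of the genes than CCCCT or the Rox1 motif. CCAAT was found on either strand within 500 bases before 33 of the 37 genes (89.2%), against 62.6% of all 5875. The longer TNATTGGT, which includes the reverse complement of CCAAT and so overlaps it in every match, was found before 17 of the 37 (45.9%) and before 8.66% of all genes. It stood before 1 of 4 genes of complex II, 3 of 8 of complex III, 5 of 9 of complex IV, 6 of 11 of complex V, 2 of 3 NADH dehydrogenase genes and 0 of 2 cytochrome c genes. The lines give 30 bases around the match for 1 gene of each group, the lowest in set2-Y236F against set2Δ among the genes of the group that hold the motif, on the strand of the gene, with the match in capitals. The stretch before COX6 overlaps the annotated open reading frame YHR050W-A.
SDH1, chrXI:171429-171458, minus strand: ggcgggggtggACCAATCAcagcgcagaac
RIP1, chrV:107001-107030, plus strand: ctccataacggACCAATCAgcgttttgcgc
COX6, chrVIII:209477-209506, plus strand: gaaaagggaccTAATTGGTccggtcaaagc
ATP3, chrII:315368-315397, plus strand: cgtgatggagaACCAATGAgcggcgagtaa
NDE1, chrXIII:556560-556589, minus strand: tattctggtaaACCAATTAaagagagaaaa
For the other motifs, the site of the activator Hap1 (a pair of CGG triplets with TA between them) was found only before QCR6 among the 37 (2.70%, against 0.357% of all genes), and ATTGTT of the repressor Rox1 before 21 of the 37 (56.8%, against 48.9%). The 17 genes with TNATTGGT had median differences from the WT of 0.12 (set2Δ), 0.22 (set2-Y149F) and -0.07 (set2-Y236F) on log2(FPKM + 1), and the 20 genes without it had 0.09, 0.10 and -0.11.

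These genes were abundant in every strain. The median of the 37 was 326, 321 and 277 FPKM in the mutants (set2Δ, set2-Y149F and set2-Y236F, an order used throughout) and 286 FPKM in the WT, while the median of all annotated rows was between 33.6 and 35.9 FPKM. The most abundant was QCR6 (YFR033C), an acidic subunit of complex III, at 1449, 1394 and 1339.9 FPKM in the mutants and 1427 FPKM in the WT. The least abundant was NDE2, at 23.0, 28.7 and 24.8 FPKM in the mutants and 12.6 FPKM in the WT. The 37 genes together held 1.60%, 1.59% and 1.31% of the summed FPKM in the mutants and 1.41% in the WT. For 32 of the 37 the highest strain mean was less than 1.5 times the lowest, and for CYC7, NDE2, QCR8, NDE1 and NDI1 it was more.

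**Figure D1:**
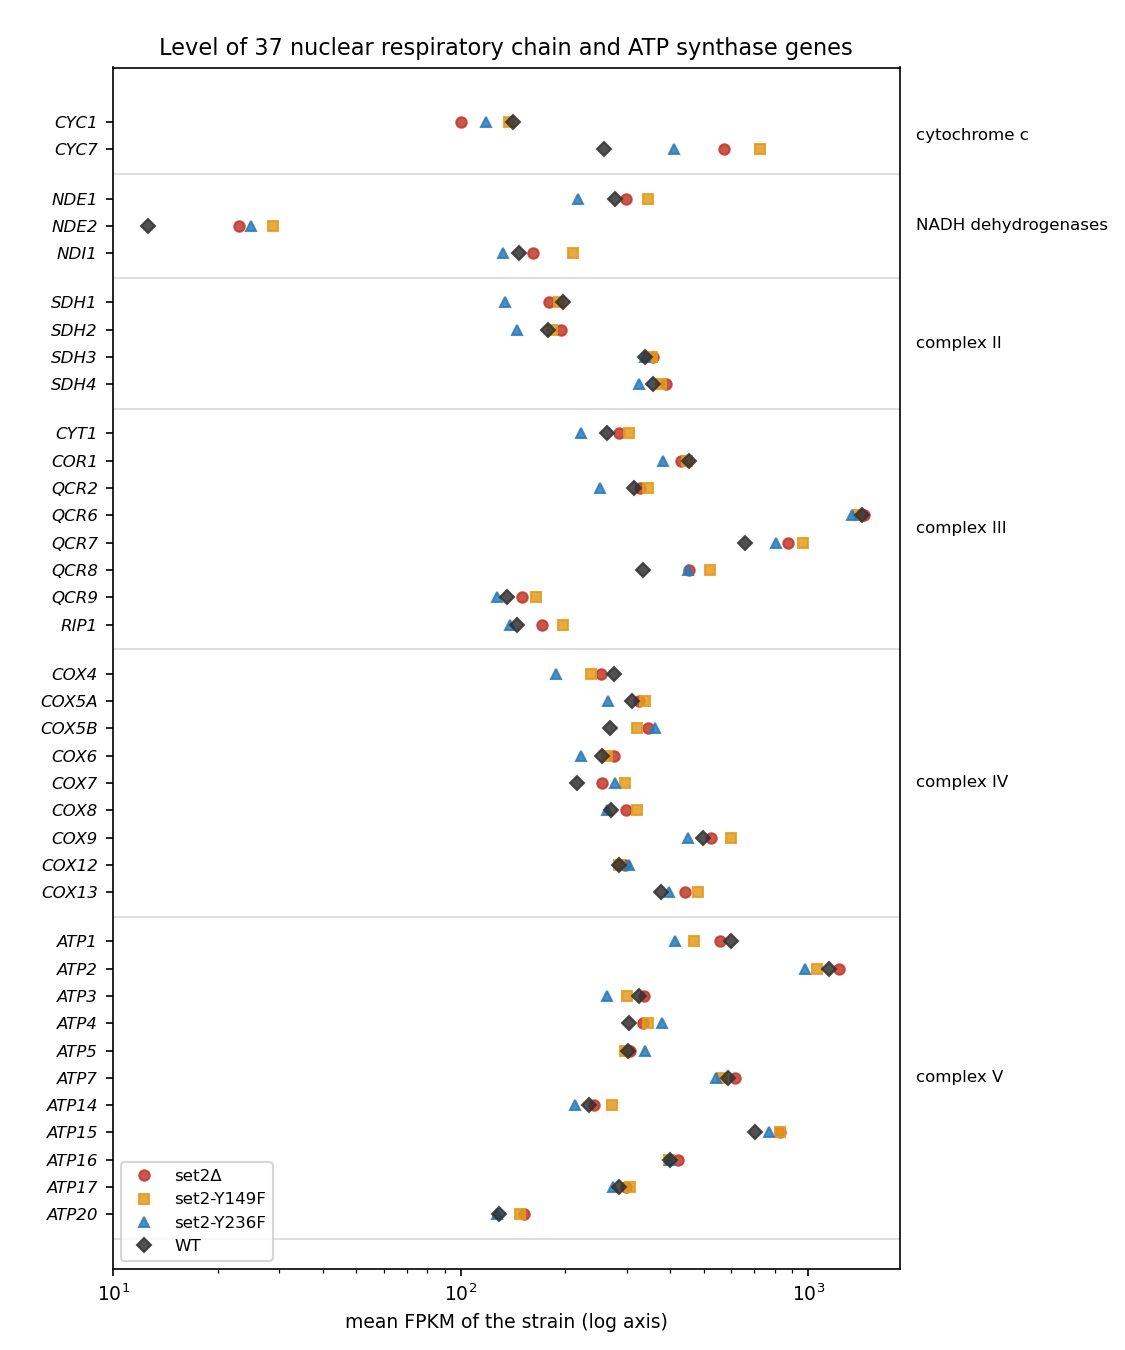
Mean FPKM of the 37 genes in each strain (log axis), grouped by complex, with 1 symbol per strain and no error bars because only strain means were used. CYC7 and NDE2 have the widest gaps between strains, with the WT lowest, while QCR6 stands at 1339.9 to 1449 FPKM in all 4 strains.

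Nearly all of these genes lay within 2-fold of the WT in each mutant. In set2Δ 1 of the 37 was higher (CYC7), where 2.88% of all annotated rows were, and 0 were lower, where 1.19% were. In set2-Y149F 2 of the 37 were higher (CYC7 and NDE2), beside 3.57% of all rows, and 0 were lower, beside 2.07%. In set2-Y236F 0 were higher and 0 lower, beside 3.47% and 1.87%. At 1.5-fold the higher genes were CYC7 and NDE2 in set2Δ (7.67% of rows), CYC7, NDE2 and QCR8 in set2-Y149F (9.67%) and CYC7 and NDE2 in set2-Y236F (8.78%), and 0 of the 37 were 1.5-fold lower in any mutant, where 6.32%, 9.45% and 9.26% of rows were. These 3 comparisons share the WT mean, and in RNA from whole cultures a difference in every cell and one in a share of the cells cannot be told apart.

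CYC7 had the largest difference from the WT among the 37 in set2Δ and set2-Y149F, and NDE2 had it in set2-Y236F. The mean of CYC7 was 571 FPKM in set2Δ, 726 FPKM in set2-Y149F and 411 FPKM in set2-Y236F, against 258 in the WT. All 3 mutant means lay above the WT mean, by 1.14, 1.49 and 0.67 on log2(FPKM + 1). CYC1, which encodes the isoform that is dominant in aerobic cells, was at 99.9, 138 and 118 FPKM in the mutants, against 142 in the WT (differences of -0.50, -0.04 and -0.26). CYC1 thus had its highest mean in the WT, the strain in which CYC7 was lowest. In set2-Y149F, where CYC7 was highest, the mean of CYC1 was nonetheless close to that of the WT. CYC7 made up 85.1%, 84.1% and 77.6% of the summed FPKM of the pair in the mutants, against 64.6% in the WT. In these cultures CYC7 thus exceeded CYC1 in every strain, the WT included. The sum of the pair was 671, 864 and 529.7 FPKM in the mutants and 399.8 FPKM in the WT.

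NDE2 encodes the less abundant of the external NADH dehydrogenases, which oxidize cytosolic NADH. It was at 23.0 FPKM in set2Δ, 28.7 FPKM in set2-Y149F and 24.8 FPKM in set2-Y236F, against 12.6 in the WT, which is 0.82, 1.13 and 0.93 on the log2 scale. The pseudocount of 1 lowers these differences slightly at this level. NDE1, the main external enzyme, was at 299.8 FPKM in set2Δ, 346 FPKM in set2-Y149F and 218 FPKM in set2-Y236F, against 278 in the WT (0.11, 0.31 and -0.35). The ratio of NDE1 to NDE2 was 13.0, 12.1 and 8.78 in the mutants, against 22.1 in the WT. NDI1 (YML120C), the internal enzyme that oxidizes NADH of the matrix, was at 161, 210.2 and 132 FPKM in the mutants, against 147 in the WT (0.14, 0.52 and -0.15).

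COX5B encodes the isoform of subunit 5 known for its induction in low oxygen. It was at 345 FPKM in set2Δ, 321 FPKM in set2-Y149F and 362 FPKM in set2-Y236F, against 269 in the WT (0.36, 0.25 and 0.43). COX5A, the aerobic isoform, was at 326, 339 and 266 FPKM in the mutants, against 311 in the WT (0.07, 0.13 and -0.22). COX5B made up 51.5%, 48.6% and 57.6% of the pair in these mutants and 46.4% in the WT, so that it exceeded COX5A in set2Δ and set2-Y236F. CYC7, COX5B and NDE2 each took a larger share of their pair in every mutant than in the WT. The gap for COX5B in set2-Y149F was small, at 48.6% against 46.4%. Of these 3 genes, only CYC7 in set2Δ and set2-Y149F and NDE2 in set2-Y149F passed 2-fold. AAC3 and ANB1, genes of other low-oxygen forms, lay below the WT in every mutant. Their differences were -0.77, -1.41 and -1.10 (AAC3) and -0.46, -1.33 and -0.89 (ANB1).

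**Figure D2:**
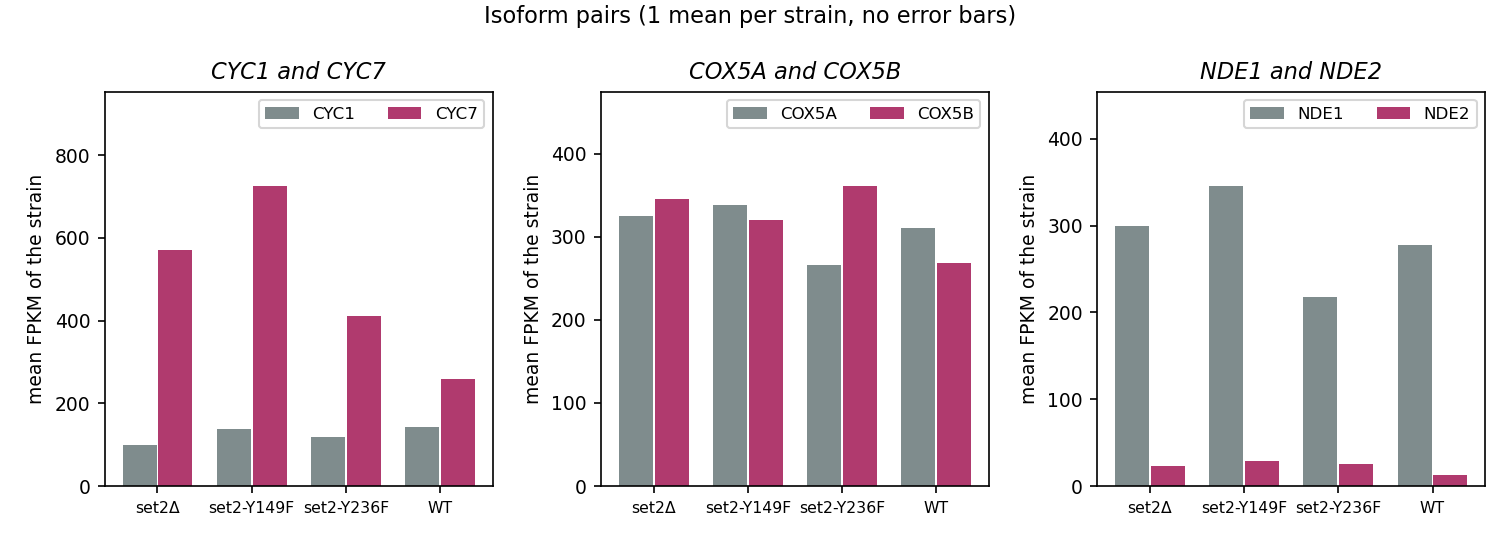
Mean FPKM of each isoform pair by strain, with bars from 0 and no error bars (1 mean per strain). CYC7 stands at 571, 726 and 411 FPKM in the mutants against 258 in the WT, and NDE2 at 23.0, 28.7 and 24.8 against 12.6.

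The genes of complex II, succinate dehydrogenase, which also works in the tricarboxylic acid cycle, had means close to the WT in set2Δ and set2-Y149F. SDH1 (YKL148C), the flavoprotein subunit, was at 179 FPKM in set2Δ, 192 FPKM in set2-Y149F and 134 FPKM in set2-Y236F, against 197 in the WT (-0.13, -0.04 and -0.55). SDH2 (YLL041C), the iron-sulfur subunit, was at 194, 183 and 145 FPKM in the mutants, against 178 in the WT (0.12, 0.04 and -0.29). Both catalytic subunits had their lowest mean in set2-Y236F. The membrane anchors were at closer levels, with SDH3 (YKL141W) at 357, 355 and 339 FPKM in the mutants against 338 in the WT. SDH4 (YDR178W) was at 389, 378 and 326 FPKM, against 356 in the WT.

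In complex III the small subunits QCR7 (YDR529C) and QCR8 (YJL166W), which bind near cytochrome b, had the largest differences from the WT in set2Δ and set2-Y149F. QCR7 was at 875 FPKM in set2Δ, 966 FPKM in set2-Y149F and 807 FPKM in set2-Y236F, against 656 in the WT (0.42, 0.56 and 0.30). QCR8 was at 452, 521 and 451 FPKM in the mutants, against 334 in the WT (0.44, 0.64 and 0.43). These were the members of complex III with a mean above the WT in all 3 mutants. RIP1 (YEL024W), the Rieske iron-sulfur protein, was at 171, 196 and 139 FPKM in the mutants, against 145 in the WT (0.23, 0.43 and -0.07). CYT1 (YOR065W), the cytochrome c1 gene, was at 286, 305 and 221 FPKM, against 264 in the WT (0.11, 0.21 and -0.26). The core subunit genes had the same order of the mutants. COR1 (YBL045C) was at 431, 447 and 382 FPKM, against 454 in the WT (-0.07, -0.02 and -0.25). QCR2 (YPR191W) was at 327, 347 and 252 FPKM, against 315 in the WT (0.06, 0.14 and -0.32), and QCR9 (YGR183C), a small subunit gene, was at 150.2, 164 and 127 FPKM, against 136 in the WT. The medians of the 8 genes were 0.13, 0.24 and -0.09.

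In complex IV the highest difference in set2Δ and set2-Y236F was that of COX5B and in set2-Y149F that of COX7 (YMR256C), a small subunit gene at 255, 298 and 277 FPKM in the mutants and 216 FPKM in the WT (0.23, 0.46 and 0.36). The lowest in all 3 was that of COX4 (YGL187C), a zinc-binding subunit gene, at 254 FPKM in set2Δ, 237 FPKM in set2-Y149F and 188 FPKM in set2-Y236F, against 276 in the WT (-0.12, -0.22 and -0.56). COX4 was the complex IV gene with a mean below the WT in every mutant. COX9 (YDL067C), a short membrane subunit gene, was at 526, 598 and 449.6 FPKM in the mutants, against 496 in the WT. COX13 (YGL191W) was at 441, 480.03 and 397 FPKM in the mutants, against 377 in the WT. These subunits surround the catalytic core, whose proteins are made inside mitochondria. COX6 (YHR051W) was at 276, 263 and 222 FPKM in the mutants, against 255 in the WT. COX8 (YLR395C) was at 298, 321 and 263 FPKM, against 271 in the WT. COX12 (YLR038C), another small subunit gene, was the steadiest of the complex, at 297, 285 and 305 FPKM in the mutants and 285 FPKM in the WT. The medians of the 9 genes were 0.12, 0.24 and -0.04.

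In set2Δ all 11 genes of ATP synthase lay between -0.10 and 0.24 of the WT. ATP1 (YBL099W) and ATP2 (YJR121W) encode the alpha and beta subunits of the catalytic F1 head. ATP1 was at 557 FPKM in set2Δ, 468 FPKM in set2-Y149F and 414 FPKM in set2-Y236F, against 599 in the WT, which gave the lowest difference of the complex in every mutant (-0.10, -0.36 and -0.53). ATP2 was at 1226, 1062 and 981 FPKM in the mutants, against 1145 in the WT (0.10, -0.11 and -0.22). ATP3 (YBR039W), the gamma subunit of the rotor stalk, was at 337, 301 and 263 FPKM, against 326 in the WT. ATP1, ATP2 and ATP3 thus had their lowest mean in set2-Y236F. ATP4 (YPL078C), a stator subunit that links head and membrane, went the other way in the point mutants, at 334, 345 and 379.6 FPKM in the 3 mutants, against 305 in the WT (0.13, 0.18 and 0.31). ATP5 (YDR298C), which joins the stator to the head, was at 306, 298 and 339.8 FPKM, against 303 in the WT. ATP7 (YKL016C), also of the stator, was at 614, 563 and 542 FPKM, against 588 in the WT. ATP15 (YPL271W) and ATP16 (YDL004W) are the epsilon and delta subunits of the central stalk. ATP15 was at 831, 828 and 773 FPKM in the mutants, against 701 in the WT, and ATP16 at 421, 397 and 399.6 FPKM, against 400.4 in the WT. The remaining small subunit genes ATP14 (YLR295C), ATP17 (YDR377W) and ATP20 (YPR020W) had differences between -0.14 and 0.23 from the WT. The medians of the 11 genes were 0.06, -0.01 and -0.06.

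**Figure D3:**
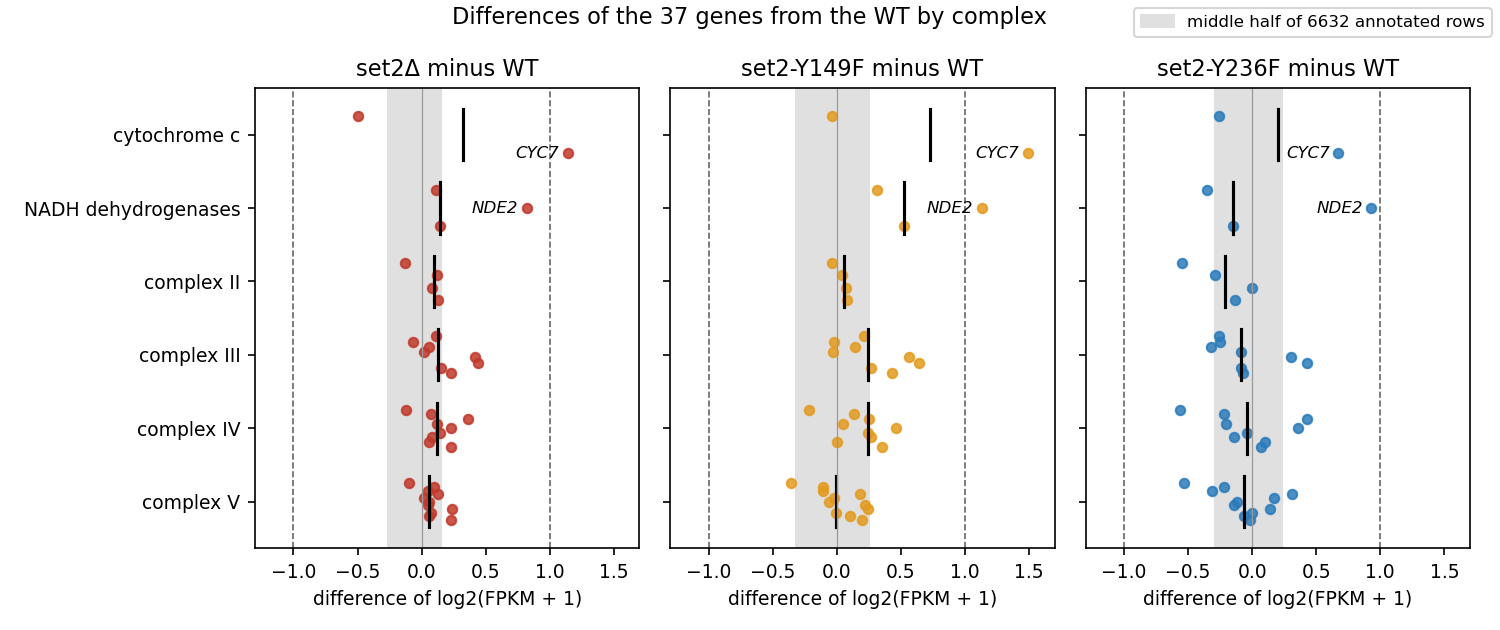
Difference of each gene from the WT on log2(FPKM + 1) in set2Δ, set2-Y149F and set2-Y236F, by complex, with 1 point per gene, the median as a black bar and dashed lines at 2-fold. Grey marks the quartile range of the 6632 annotated rows, and CYC7 (1.14, 1.49 and 0.67) and NDE2 (0.82, 1.13 and 0.93) lie outside it in each panel.

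As a group the 37 genes differed little from the WT in level. The median difference was 0.11, 0.14 and -0.09 in the mutants, and over all annotated rows it was -0.07, -0.04 and -0.02. In set2Δ 32 of the 37 had a mean above the WT, where 40.2% of all rows did and 37.5% of the 1503 rows with a mean of at least 100 FPKM. In set2-Y149F 26 of the 37 were above the WT, beside 46.0% of all rows, and in set2-Y236F 12 were, beside 47.5%. Scaling the strains to the same median FPKM gave 33 of 37 beside 51.6% of rows (set2Δ), 33 beside 53.5% (set2-Y149F) and 19 beside 56.5% (set2-Y236F). The medians of the genes were then 0.20, 0.22 and 0.00, so the direction in set2-Y236F against the WT depended on the scaling. Without CYC7, COX5B and NDE2, the medians of the other 34 genes were 0.09, 0.11 and -0.12.

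The strain means of set2-Y149F and set2-Y236F, which both express a SET2 gene from the plasmid, were set against each other. At 2-fold 0 of the 37 were higher and 0 lower in set2-Y149F, where 0.302% and 0.317% of all rows were. At 1.5-fold CYC7 (726 FPKM in set2-Y149F, against 411 in set2-Y236F), NDI1 (210.2 and 132) and NDE1 (346 and 218) were higher, beside 2.43% of rows, and 0 were lower, beside 1.88%. The differences of these genes were 0.82, 0.67 and 0.66. The next were SDH1 (0.51), RIP1 (0.50), CYT1 (0.46) and QCR2 (0.46). Of the 37 genes, 32 had a higher mean in set2-Y149F, where 48.9% of all rows and 46.3% of the rows of at least 100 FPKM did, and the median was 0.22 against -0.01 over all rows. All 8 genes of complex III, all 4 of complex II, all 3 NADH dehydrogenases and both cytochromes c were among the 32. The 5 genes with a higher mean in set2-Y236F were ATP5 (-0.19), COX5B (-0.17), ATP4 (-0.14), COX12 (-0.10) and ATP16 (-0.01). With the strains scaled to the same median the count was 32 beside 47.1% of rows, and with the same sum of FPKM, a scaling added after the values were seen, 33 beside 58.3%.

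**Figure D4:**
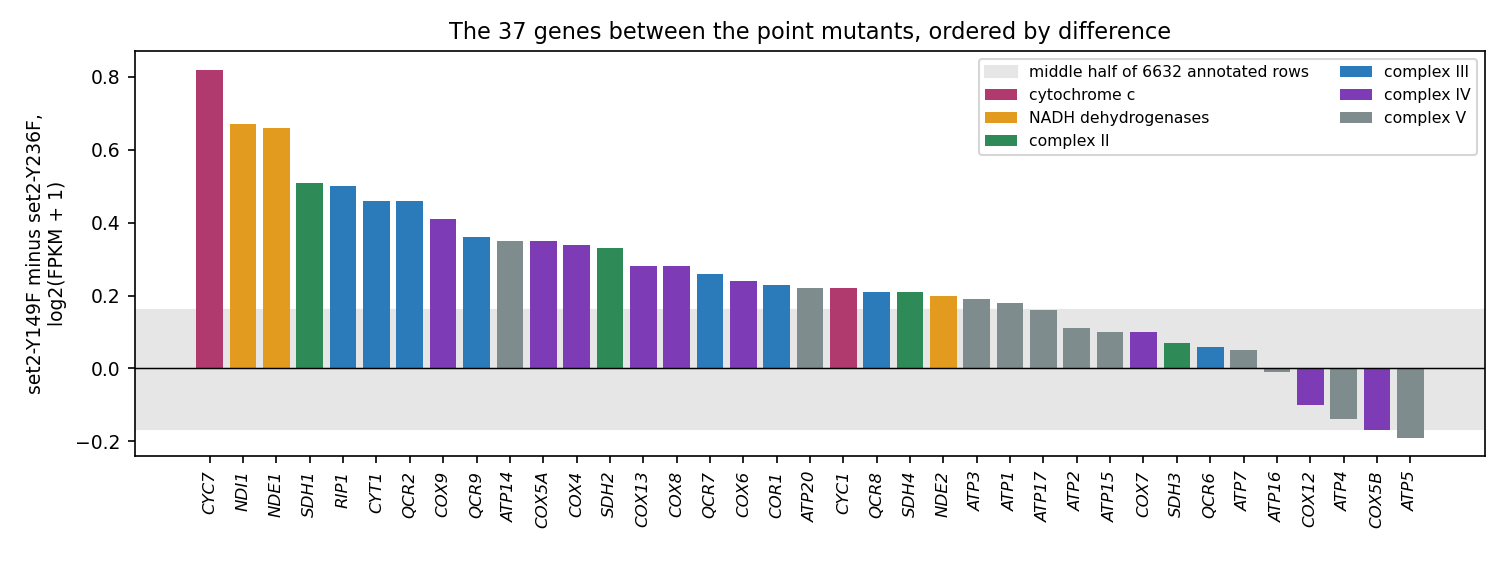
Difference of the 37 genes between the point mutants (set2-Y149F minus set2-Y236F, log2(FPKM + 1)), ordered by size and coloured by complex, with the quartile range of all annotated rows in grey. CYC7, NDI1 and NDE1 stand at the left with 0.82, 0.67 and 0.66, and 5 genes lie below 0.

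Both point mutants were also set against set2Δ, the strain with the same vector and no SET2. The vector marker LEU2 was nonetheless at 6023 FPKM in set2Δ, against 1775 (set2-Y149F) and 1889.9 (set2-Y236F). SET2 RNA in the point mutants was at 253 and 271 FPKM, above the 29.1 FPKM of the WT. The part of these levels in the differences was not tested. Against set2Δ, 0 of the 37 were 2-fold higher in set2-Y149F and 0 lower, beside 1.76% and 1.07% of all rows, and 0 and 0 in set2-Y236F, beside 1.91% and 1.07%. In set2-Y149F 21 of the 37 had a higher mean than in set2Δ, beside 51.4% of rows, with a median of 0.05 and a range from -0.25 (ATP1) to 0.46 (CYC1). In set2-Y236F 7 of the 37 had a higher mean than in set2Δ, beside 52.5% of rows and 59.7% of the rows of at least 100 FPKM, with a median of -0.18. The lowest were CYC7 (-0.47), NDE1 (-0.46), COX4 (-0.44), ATP1 (-0.43), SDH1 (-0.42) and SDH2 (-0.41). The 7 were CYC1 (0.24), ATP4 (0.18), ATP5 (0.15), COX7 (0.12), NDE2 (0.11), COX5B (0.07) and COX12 (0.04). The count was 7 beside 52.8% of rows with the strains at the same median and 5 beside 42.0% with the same sum. The set2-Y236F strain had the lowest of the 4 means for 23 of the 37 genes, a place it had in 22.9% of all rows, and set2-Y149F the highest for 17, a place it had in 22.3% of rows. These comparisons share strains with those against the WT and with each other.

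Small subunits and inhibitors of the same complexes that are not among the 37 form a list of 7 genes. ATP18, ATP19 and TIM11 of ATP synthase and QCR10 of complex III had differences between -0.62 and 0.29 from the WT. INH1 and STF1, inhibitors of ATP hydrolysis by ATP synthase, did not pass 2-fold. INH1 was at 342, 384 and 335 FPKM in the mutants, against 343 in the WT, and STF1 at 673, 957 and 695 FPKM, against 554 in the WT. STF2, listed with them and known for a role in desiccation tolerance, was the 1 gene of these 7 past 2-fold, at 4517 FPKM in set2Δ, 5006 FPKM in set2-Y149F and 3889 FPKM in set2-Y236F, against 2467 in the WT (0.87, 1.02 and 0.66). Of the subunits encoded in mitochondria, COX1, COX2, COX3 and ATP6 were at 0 to 0.434 FPKM and OLI1 at 18.9, 8.55 and 14.4 FPKM in the mutants and 11.5 FPKM in the WT. The libraries were made from polyadenylated RNA, which mitochondrial transcripts of yeast mostly are not, so these levels do not measure them.

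For the related lists, too, the shares of all annotated rows past 2-fold were 2.88%, 3.57% and 3.47% higher and 1.19%, 2.07% and 1.87% lower in the mutants. Among 31 cytochrome oxidase assembly genes, 0 were 2-fold higher or lower in set2Δ and set2-Y149F, and COA2 was lower in set2-Y236F, at 51.4, 36.0 and 35.6 FPKM in the mutants and 72.6 FPKM in the WT, so that 0 or 1 of 31 is near those shares. Of 13 complex III assembly genes, 14 ATP synthase assembly genes and 8 heme synthesis genes, 0 were called in any mutant. Calls are on log2(FPKM + 1), so a gene of low level can be 2-fold apart in FPKM and not be called. NCA3 of ATP synthase assembly was such a gene, at 7.01, 7.23 and 6.76 FPKM in the mutants and 3.37 FPKM in the WT (0.87, 0.91 and 0.83). COQ2, which attaches the side chain in ubiquinone synthesis, was the 1 of 11 genes of that pathway past 2-fold and lower in all 3, at 14.9 FPKM in set2Δ, 13.8 FPKM in set2-Y149F and 14.1 FPKM in set2-Y236F, against 33.1 in the WT (-1.10, -1.21 and -1.18). Of the 54 mitochondrial ribosomal protein genes 0 passed 2-fold, with medians of -0.14, -0.11 and -0.06. SHH3, a paralog of SDH3, was the 1 of 7 genes of succinate dehydrogenase assembly and paralogs past 2-fold, at 11.3, 10.1 and 13.1 FPKM in the mutants and 1.57 FPKM in the WT (2.26, 2.11 and 2.46).

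Some genes that feed the chain passed 2-fold. CYB2, the lactate dehydrogenase that passes electrons straight to cytochrome c, was higher in all 3 mutants, at 82.2 FPKM in set2Δ, 92.1 FPKM in set2-Y149F and 61.5 FPKM in set2-Y236F, against 17.5 in the WT (2.17, 2.33 and 1.75). In the same list of 14 donors and carriers, AAC3, the ADP/ATP carrier of low oxygen, was lower in both point mutants, at 7.61 FPKM in set2Δ, 4.51 FPKM in set2-Y149F and 5.84 FPKM in set2-Y236F, against 13.7 in the WT (-0.77, -1.41 and -1.10). POR2, a minor porin, was lower in set2-Y149F (-1.02), and SFC1, a succinate-fumarate carrier, was higher in set2-Y236F (1.06) at 3.81 FPKM, against 1.31 in the WT. ACO1, the aconitase of the tricarboxylic acid cycle, was the 1 of 15 genes of that cycle past 2-fold, at 219, 175 and 141 FPKM in the mutants and 366 FPKM in the WT (-0.74, -1.06 and -1.37).

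HAP4, the regulatory subunit of the Hap complex that activates respiratory genes, was at 204 FPKM in set2Δ, 235 FPKM in set2-Y149F and 163 FPKM in set2-Y236F, against 150.7 in the WT (0.44, 0.64 and 0.11). The other subunit genes of the complex went different ways. HAP2 differed from the WT by 0.33, 0.70 and 0.46, HAP3 by -0.32, -0.58 and -0.41 and HAP5 by -0.06, -0.03 and 0.01. HAP1, a heme-responsive activator, was at 59.1, 47.4 and 46.9 FPKM in the mutants and 72.3 FPKM in the WT. Of 17 regulators, ROX1 and ADR1 were 2-fold higher in set2-Y149F and 0 in the other mutants, where 3.57% of all rows were higher in set2-Y149F, 2.88% in set2Δ and 3.47% in set2-Y236F. ROX1, the repressor of low-oxygen genes, was at 74.2 FPKM in set2Δ, 123 FPKM in set2-Y149F and 64.0 FPKM in set2-Y236F, against 60.0 in the WT (0.30, 1.03 and 0.09). The list of 22 hypoxic genes also holds the repressor ROX1 itself and HYP2, the aerobic counterpart of ANB1, so not all of it are low-oxygen genes. Of the 22, 0 were 2-fold higher or lower in set2Δ. AAC3 and ANB1 were lower in set2-Y149F and AAC3 in set2-Y236F, and ROX1 was the 1 higher, in set2-Y149F. Of all rows, 2.88%, 3.57% and 3.47% were higher and 1.19%, 2.07% and 1.87% lower, and the counts of the list rest on few genes. The medians of the list were -0.08, -0.19 and -0.29. In the mutants 9, 5 and 6 of the 22 lay above the WT, beside 40.2%, 46.0% and 47.5% of all rows. ANB1, the low-oxygen form of translation factor eIF5A, was at 35.8, 19.1 and 26.3 FPKM in the mutants and 49.7 FPKM in the WT. OLE1, the fatty acid desaturase, differed from the WT by 0.18, 0.98 and 0.99, so genes of this list lay on both sides of the WT.

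Among 20 genes repressed by glucose, the numbers 2-fold higher in the mutants were 1, 6 and 7, and 0 were lower, beside 2.88%, 3.57% and 3.47% of all rows higher and 1.19%, 2.07% and 1.87% lower. ADY2, an acetate transporter, was at 4.93 FPKM in set2Δ, 23.2 FPKM in set2-Y149F and 35.2 FPKM in set2-Y236F, against 2.07 in the WT. JEN1, the lactate transporter, was at 43.3, 153 and 169.7 FPKM in the mutants and 25.1 FPKM in the WT. CTA1, the peroxisomal catalase, was higher in all 3, at 19.3, 18.6 and 19.8 FPKM and 4.38 FPKM in the WT, and ACS1, an acetyl-CoA synthetase, was at 8.69, 23.1 and 25.4 FPKM and 8.26 FPKM in the WT. The genes of the list with the highest WT means were HXK1, HXT7, HXT6, ADH2, ALD4 and SUC2. None of them passed 2-fold in any mutant, with differences between -0.61 (HXT7 in set2-Y236F) and 0.65 (SUC2 in set2-Y149F). The medians of this list were 0.05, 0.52 and 0.36. The part of the growth medium in these values was not tested.

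**Figure D5:**
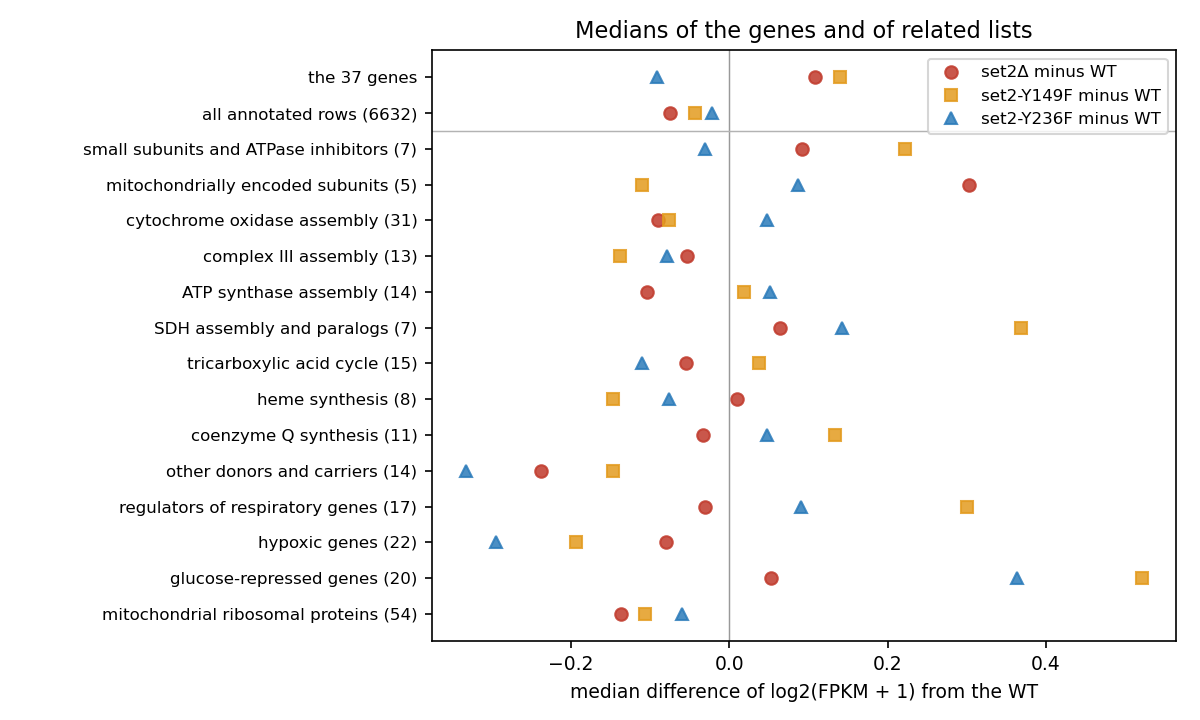
Median difference from the WT on log2(FPKM + 1) for the 37 genes, all annotated rows and 14 related lists, with the number of genes in brackets and 1 symbol per mutant. The glucose-repressed genes lie at 0.05, 0.52 and 0.36, and the 37 genes at 0.11, 0.14 and -0.09.

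None of the 37 genes was paired with a transcript in the authors' 3 lists of antisense transcripts, while 11.6% of the 5889 protein-coding genes with a row were. Of the 820 protein-coding genes with a coding length up to the 468 bp median of the 37, 1 was listed (0.122%), and of the 4472 up to the 1923 bp of SDH1, 315 were (7.04%). CYC7, NDE2 and COX5B, whose shares differed between the strains, thus have no listed antisense transcript. By their size, the lists appear to hold only transcripts called higher in a mutant. The study describes many more antisense transcripts than passed its cutoff. Absence from the lists therefore does not show that a gene has no antisense transcript.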

How the data were processed

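RNA of 4 strains (set2Δ, set2-Y149F, set2-Y236F and WT) was sequenced by the authors from 3 libraries each. Tools listed in the submitters' processing notes are HTSeq 0.13.5, Cufflinks 2.2.1 with Cuffdiff, bedtools 2.29.2, TopHat2 2.1.1, Trimmomatic 0.38 and SAMtools 1.10, and the build is sacCer3. The authors deposited FPKM as 1 mean per strain. Which program gave the FPKM, how many libraries enter a mean and how deep each library is are not given in the sources used here. Of the means with 16 digits, 81.5% to 82.5% in each strain end in 5, as averages of 2 values do, so a mean may not hold all 3 libraries. Their sheet of a set2Δ comparison (mean count, fold change, p-value) and the fold change, CPM and p-value columns of their 3 antisense lists were not used; of those lists, only the names of the paired genes were read.

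Differences of log2(FPKM + 1) were computed for 6 pairs of strains in Python 3.11.15 with NumPy 2.4.6 over 6632 annotated rows (4 empty lines of the sheet were not used). Limma could not be run without values per library. The 37 genes were given by name, and the members, the 14 lists and the rules for named genes were chosen with earlier results of these data known. By these rules, genes past 2-fold, the extremes of each complex, the isoform pairs and up to 4 genes of each list were named, and other genes were picked with their values in view. Coordinates, coding lengths and upstream sequences came from RefSeq R64, in which chromosome lengths hold every antisense coordinate of the files.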

Additional observations from a re-analysis of the deposited data

How the results depend on the processing

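No paired analysis was possible because the sheet holds 1 mean per strain and no column per library, and for the same reason no replicate could be left out and no limma comparison was run. Of the 37 genes, the number called higher in set2-Y149F against the WT was 1 instead of 2 at a pseudocount of 10, where NDE2 was at 0.78, and also 1 when only rows with a mean of at least 100 FPKM were kept, a filter added after the data were seen that leaves out NDE2. In set2-Y236F against the WT it was 1 instead of 0 with the strains scaled to the same median (NDE2 at 1.01). A call at 1.5-fold gave 2 instead of 1 in set2Δ against the WT, 2 instead of 0 in set2-Y236F against the WT and 3 instead of 0 in set2-Y149F against set2-Y236F. The counts of lower genes were 0 under each alternative and in each of the 6 comparisons. A pseudocount of 0.1, a minimum mean of 1 FPKM and keeping only rows in RefSeq changed no count of the 37. Adding a pseudocount of 1 to both isoforms gave ratios of NDE1 to NDE2 of 12.5 in set2Δ, 11.7 in set2-Y149F, 8.48 in set2-Y236F and 20.5 in the WT.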
